A study of Mus musculus with 2 samples.

Results

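The genes of the nuclear pore complex and of transport through it were described in RNA-seq of NE4C cells, a line of mouse neural stem cells. The members were chosen by gene symbol, which left out the nucleoporins Sec13, Ahctf1 and Rae1, read with related genes below. They were most nucleoporins, Ran and its regulators, the importins, transportins and exportins, and the mRNA export receptor pair Nxf1 and Nxt1. There were 57 such genes among the 16803 in the table, and all 57 were among the 13442 that passed the filter of at least 10 reads over both libraries. The control was normally cultured NE4C, and the other group was NE4C treated with HTL (homocysteine thiolactone, a cyclic form of homocysteine that attaches to lysine residues of proteins). Both cultures shared the cell line and, per the labels, Eagle MEM medium and poly-L-lysine coated plates; the labels give no dose and no duration of HTL. Each condition had 1 library, with 10350646 reads in the control and 9102057 in the HTL library. No difference below therefore has a replicate check, and the tests and 95% intervals compare these 2 libraries and cover counting error only.

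The nuclear pore is built from many copies of a set of proteins, the nucleoporins, arranged as scaffold rings around a channel filled with flexible repeats, with filaments on the cytoplasmic side and a basket on the nuclear side. Importins and exportins carry cargo through the channel. The small GTPase Ran sets the direction, because Ran is held in the GTP form inside the nucleus, where it releases import cargo and loads export cargo. Dividing stem cells rebuild their pores after every mitosis, and most genes of this machinery are broadly expressed.

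In these libraries the pore and transport genes were well expressed. Their estimated reads made up 1.30% of the control library (134321 reads; 95% Clopper-Pearson interval 1.291 to 1.305%) and 1.19% of the HTL library (108585 reads; 1.186 to 1.2%). The median level was 36.91 FPKM (the fragments counted relative to transcript length and library size) in the control, against 7.13 over all genes tested, and 54 of the 57 lay at or above the middle of all genes tested. A few members stood apart in opposite directions. Nup62 was 1.93-fold higher in the HTL library, while Nupl1, which encodes a direct partner of the Nup62 protein, was 2.05-fold lower.

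**Figure D1:**
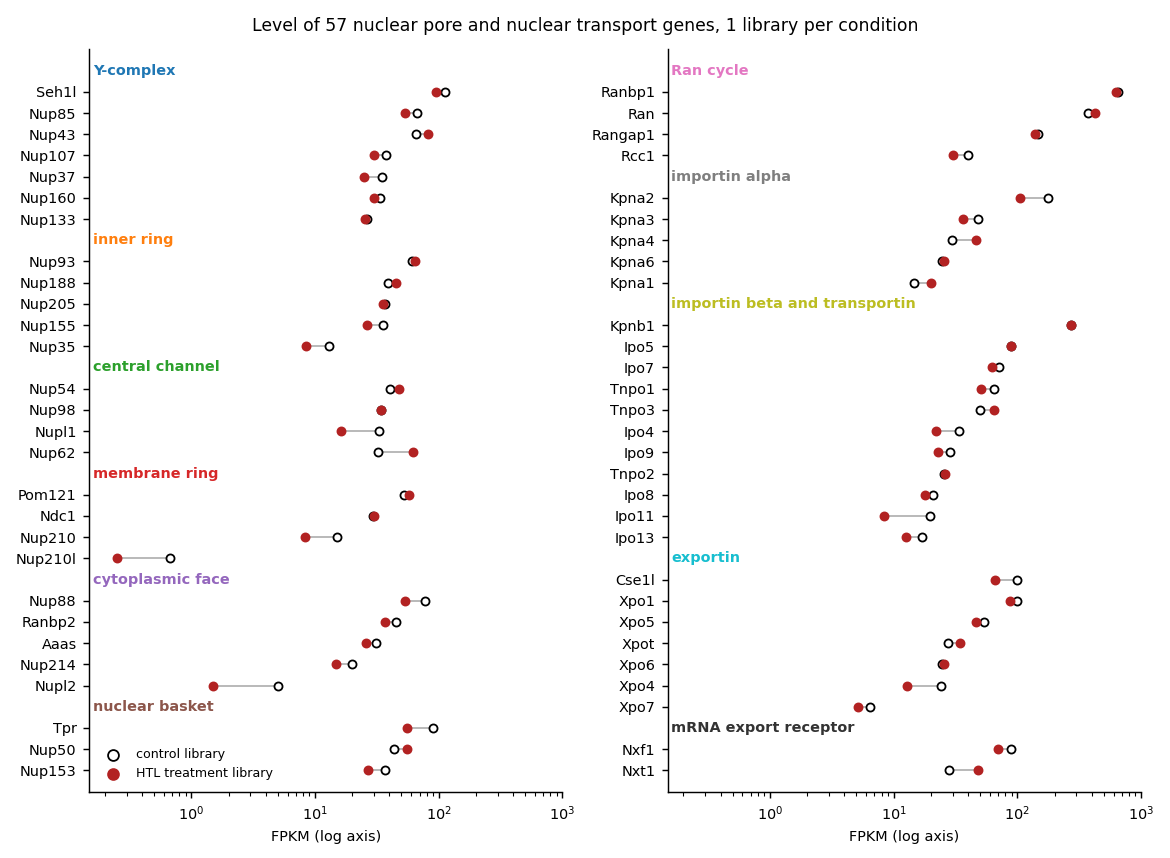
Level of each of the 57 genes in FPKM (log axis) in the control library (open points) and the HTL library (filled points), grouped by role, 1 library per condition. Levels ran from 0.67 FPKM (Nup210l) to 645.21 FPKM (Ranbp1) in the control, and most pairs of points lie close together; Nup62, Nxt1 and Kpna4 moved to the right, and Nupl1, Nupl2, Ipo11, Xpo4 and the little-read Nup210l to the left.

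Short stretches of the promoters are shown first, because the member with the highest ratio, Nup62, carries in its promoter a sequence that also occurs in other members of different roles. In the 250 bases before the gene start (RefSeq, build GRCm38.p6), 46 of the 57 members had a promoter sequence. The core letters of the NRF1 motif, GCATGCGC on either strand, were found in 6 of the 46 (13.0%), against 4.94% of the 10615 genes tested that had a promoter sequence. NRF1 is a transcription factor of mitochondrial and other housekeeping genes. Each line gives 30 bases, 5′ to 3′ on the strand of the gene, with the core in capitals; where the core on one strand overlaps the core on the other, both are in capitals.
Nup62, chr7:44816058-44816087, plus strand, core 20 bases before the start: ataagacaatGCGCATGCGCaacaggttgt
Nup50, chr15:84923251-84923280, plus strand, 167 bases before: gggcgggcttGCGCATGCGCcgcgcgaccc
Nup50, chr15:84923313-84923342, plus strand, 105 bases before: aggctccgacGCGCATGCGCagtagctgga
Nup107, chr10:117792751-117792780, minus strand, 65 bases before: gacgaaagtcGCGCATGCGCcgagcgggaa
Ran, chr5:129019941-129019970, plus strand, 205 bases before: cccgcagccaGCGCATGCGCgtggcagccc
Ranbp1, chr16:18248815-18248844, minus strand, 139 bases before: ggcgcggccggGCATGCGCcgcgggcgttt
Xpo5, chr17:46202716-46202745, plus strand, 85 bases before: acttccgcgcGCGCATGCGCcgtggcggct
Xpo5, chr17:46202739-46202768, plus strand, 62 bases before: ggcggctccgGCGCATGCGCagcgctgggt

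The 6 genes with the core did not move together. Their log2 ratios (HTL over control) were 0.95 for Nup62, 0.35 for Nup50, 0.19 for Ran, -0.05 for Ranbp1, -0.19 for Xpo5 and -0.30 for Nup107. Their median was 0.07, against -0.20 for the members without the core and -0.15 for all genes with it. A match is a stretch of letters and not a shown binding site.

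A second, commoner motif was present on both sides of the comparison. The CCAAT box (CCAAT on either strand, ATTGG when read on the other) was found in 21 of the 46 members (45.7%), against 41.2% of all genes with a promoter sequence. The windows below belong to members that were higher in the HTL library (Nxt1, Kpna4) and to members that were lower (Kpna2, Ipo11, Nupl2), with the box in capitals.
Nxt1, chr2:148672467-148672496, plus strand, 136 bases before the start: tctccacaacatCCAATcagagctccctca
Kpna4, chr3:69127115-69127144, minus strand, 40 bases before: gagcccggccggCCAATcggcggaccgggt
Kpna2, chr11:106999533-106999562, minus strand, 25 bases before: ttttcaaacctaCCAATgaacgcgcagctt
Ipo11, chr13:106937038-106937067, minus strand, 97 bases before: gcacacaaccctATTGGctgccgcgcgcct
Nupl2, chr5:24164918-24164947, plus strand, 33 bases before: ttcttaaatcccATTGGctaaagcccacgc

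Another 4 motifs were searched on both strands. The ETS core CGGAAG was in 17 members (37.0%, against 28.0% of all promoters), the E-box CACGTG in 8 (17.4% against 9.89%) and the cAMP response element TGACGTCA in 2 (4.35% against 3.04%). The letters TGATGNAA, those of the element bound by C/EBP and ATF factors, were in 0 of 46 members and in 2.34% of all promoters. None of the 6 motifs contains the letters of another. Members with the E-box had a median log2 ratio of 0.14 and those without it of -0.23, while over all genes with the E-box the median was -0.16. For the ETS core these medians were -0.05, -0.20 and -0.12, for the CCAAT box -0.08, -0.19 and -0.11, and for the cAMP response element, with 2 members, -0.22, -0.19 and -0.10.

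Across all members, the median log2 ratio was -0.20, with quartiles of -0.42 and 0.05. The median of all genes tested was -0.14, with wider quartiles of -0.60 and 0.28. Scaling by edgeR's TMM in place of the library totals raised every log2 ratio by 0.14, which put the members' median at -0.06 and that of all genes at -0.00058. Median of ratios and upper quartile raised them by 0.13 and 0.11. Directions below are relative to the library totals, and a family is said to flip where its median changes sign under TMM, the largest of these shifts, or, where stated, against genes of similar length.

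Calls rested on an exact binomial test of each gene's reads against the library totals, two-sided, at a p of 0.001 or less after Benjamini-Hochberg adjustment over the 13442 genes. With the log2 cutoff of 1 in either direction that the study's methods use, 3 of 57 members fell (Nupl2, Ipo11 and Nupl1; 5.26%, against 7.98% of all genes tested) and 0 rose (against 2.81% of all genes). Under TMM 2 members fell, Nupl2 and Ipo11 (against 5.85% of all genes) and 1 rose, Nup62 (against 4.16%). With a smaller log2 cutoff of 0.5, 11 members fell (19.3%, against 18.2% of all genes) and 3 rose (5.26%, against 8.9%). Those that fell were Nupl2, Ipo11, Nupl1, Xpo4, Nup210, Kpna2, Tpr, Nup35, Ipo4, Cse1l and Nup88; those that rose were Nup62, Nxt1 and Kpna4. Under TMM, the smaller cutoff gave 7 that fell (against 13.6% of all genes) and 5 that rose (against 13.4%). Nup35, Ipo4, Cse1l and Nup88 were then no longer called, and Kpna1 and Tnpo3 were called as higher. The members' shares of falls lay near those of all genes.

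The tested members had more reads than most genes, so small differences were measurable. In 33 of the 57 the 95% interval of the log2 ratio lay below 0 (57.9%), in 12 above 0 (21.1%), and in 12 it included 0. Over all genes tested, which mostly had fewer reads, it lay below 0 in 36.2% and above 0 in 23.2%. Among the 1203 genes with at least the members' median of 3186 reads in both libraries together, the interval lay below 0 in 43.8% and above 0 in 43.2%, and their median log2 ratio was -0.0061. Members read below their own median are set beside deeper genes here, so these shares are not matched on depth. Set against the median gene in place of 0, the interval lay below in 27 members (47.4%) and above in 22 (38.6%). The corresponding shares were 28.2% and 30.1% of all genes tested, and 30.8% and 54.6% of the deeply read genes.

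**Figure D2:**
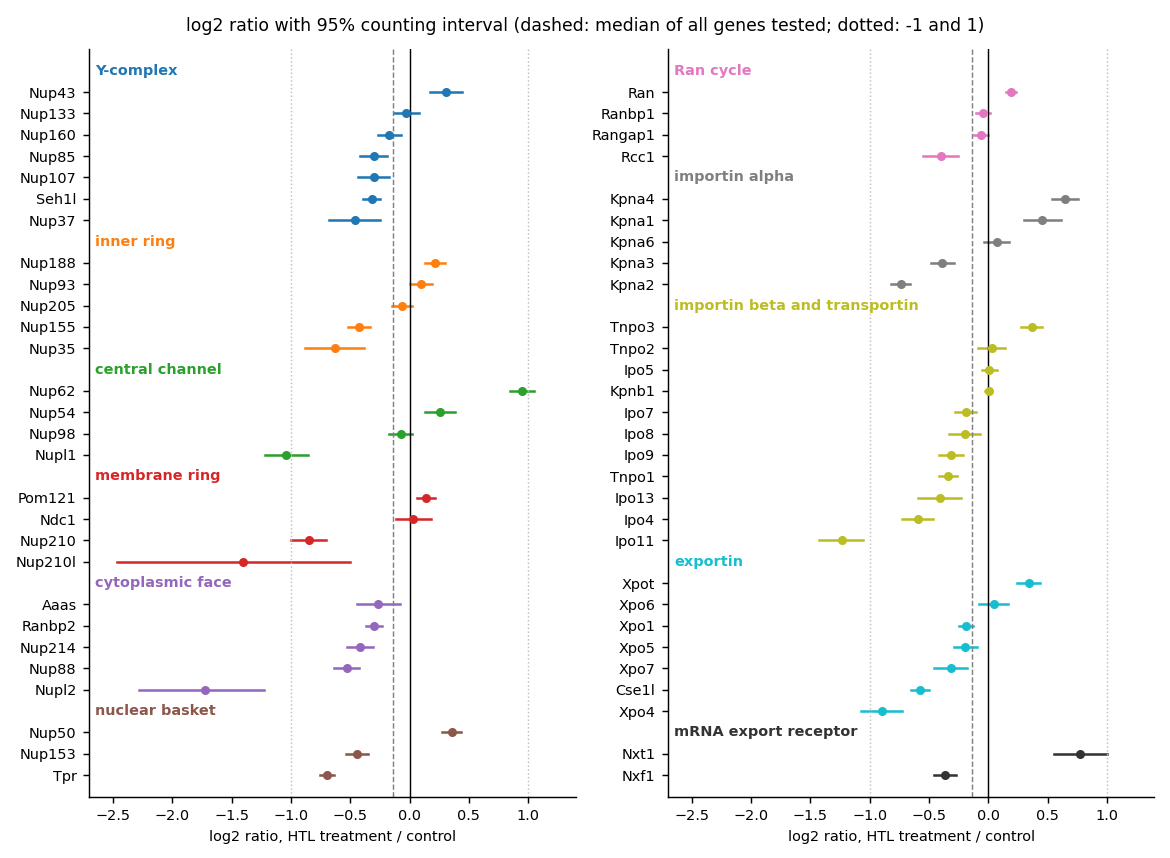
Log2 ratio (HTL over control, scaled to library totals) of each member with its 95% counting interval, grouped by role; the dashed line is the median of all genes tested (-0.14) and the dotted lines mark -1 and 1. In the cytoplasmic face the intervals of all 5 members lie below 0, as do those of 36.2% of all genes tested. The central channel spans from -1.04 (Nupl1) to 0.95 (Nup62) and the importin alpha genes from -0.74 (Kpna2) to 0.64 (Kpna4).

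The widest spread among the nucleoporins was in the central channel. Nup62, Nup54 and Nupl1 encode the proteins of the channel trimer (the Nupl1 product is also called Nup58), whose phenylalanine-glycine repeats form the permeability barrier. Nup62 (gene ID 18226; NCBIM37 chromosome 7, 52071458 to 52086179, plus strand) gave 1260 control and 2134 HTL reads, or 32.25 and 61.98 FPKM. Its log2 ratio was 0.95 (95% interval 0.84 to 1.05) with an adjusted p of 2.70e-77 (exact binomial, Benjamini-Hochberg), and it rose at the smaller cutoff and stayed just under the larger one. Nupl1 (gene ID 71844; chromosome 14, 60824707 to 60870344, minus strand) had 830 and 355 reads, or 33.19 and 16.11 FPKM. Its log2 ratio was -1.04 (-1.22 to -0.86), and under TMM it was -0.90. Nup54 had 969 and 1016 reads, with a log2 ratio of 0.25 (0.13 to 0.38).

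In the control library the genes of the trimer were therefore close to equal on the FPKM scale, and in the HTL library they were not. Nup62 made up 30.6% of their summed FPKM in the control and 49.3% in the HTL library. Nupl1 went from 31.5% to 12.8%, and Nup54 held 38.0% and 37.9%. The ratio of Nup62 to Nupl1 was 0.972 in the control and 3.85 in the HTL library, a log2 difference of 1.98 (exact conditional interval 1.78 to 2.2) that does not depend on the scaling of the libraries. This pair, like the others below, was chosen after its values were seen, so its interval is a description and not a test. Nup98, the other channel member of the set, which also serves mRNA export, had 1931 and 1610 reads, with a log2 ratio of -0.08 (-0.17 to 0.02).

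Some of the reads of Nup62 could belong to a neighbour. In the mouse annotation (GENCODE vM1, NCBIM37), Nup62 shares 82 exon bases with Atf5 on the opposite strand and 114 with Il4i1 on the same strand. The sources used here do not say whether strand was used in counting, and reads over the bases shared with Atf5 are uncertain. Atf5, a stress-responsive transcription factor, gave 339 control and 1509 HTL reads, a log2 ratio of 2.34 (2.17 to 2.51). Il4i1 had 7 and 1 reads. The part of the shared bases in the Nup62 value was not tested.

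**Figure D3:**
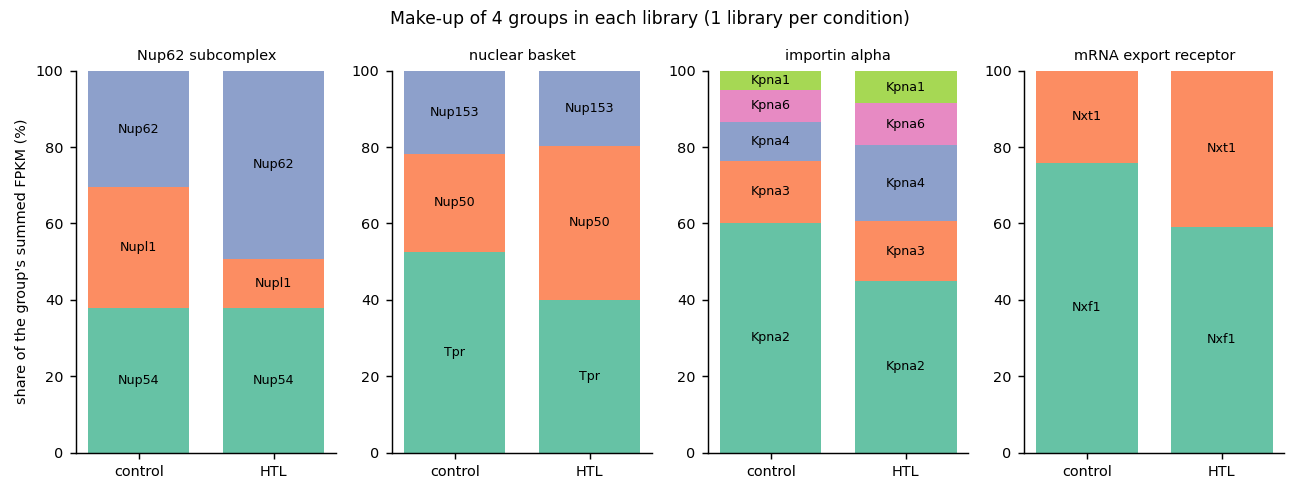
Share of each gene in the summed FPKM of its group, in percent, in the control and HTL libraries (1 library per condition), for the Nup62 trimer, the nuclear basket, the importin alpha genes and the mRNA export receptor. The share of Nupl1 was 31.5% in the control and 12.8% in the HTL library, that of Kpna2 was 60.1% and 45.0%, and that of Nxt1 was 24.1% and 40.9%.

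The 5 members of the cytoplasmic face in the symbol set were all lower in the HTL library. Their median log2 ratio was -0.41 (-0.28 under TMM, with all 5 still below 0). Minus the median of all genes of similar length, the group median was -0.21, with Nup214 at -0.04 and Ranbp2 at 0.08. Proteins of this face receive mRNA as it leaves the channel. Nupl2 (gene ID 231042; chromosome 5, 23670781 to 23689831, plus strand), which binds the mRNA export factor Gle1, had the lowest log2 ratio of all members. It gave 152 control and 40 HTL reads, or 5.02 and 1.5 FPKM, a log2 ratio of -1.73 (-2.28 to -1.23) and a level 3.31-fold lower. Gle1 itself, Ddx19b and Ddx19a act at the same face but are outside the symbol set, and none was lower. Gle1 was at 0.30 (0.18 to 0.43), Ddx19b at 0.31 (0.18 to 0.43) and Ddx19a at 0.09 (0.00075 to 0.18). Nup88, the partner of Nup214, had 1970 and 1199 reads and fell by 0.53 on the log2 scale (interval -0.64 to -0.43). It shares 48 exon bases on the opposite strand with Rabep1, which had 874 and 465 reads, with a log2 ratio of -0.72 (-0.89 to -0.56), and the part of these bases was not tested.

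The other members of that face passed neither cutoff. Nup214 had 1704 and 1124 reads, with a log2 ratio of -0.41. Ranbp2, the giant filament protein that also acts as a SUMO ligase, had 4495 and 3213 reads, with a log2 ratio of -0.30. Aaas, mutated in triple A syndrome, had 584 and 428 reads, with a log2 ratio of -0.26. The summed level of the 5 members was 178.39 FPKM in the control and 132.25 in the HTL library.

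In the nuclear basket, the members went in both directions, and the median was -0.45 (-0.31 under TMM, and -0.17 minus the median of genes of similar length). Tpr, which forms the basket filaments, had 7079 and 3845 reads, or 89.45 and 55.14 FPKM. It fell by 0.70 on the log2 scale (interval -0.75 to -0.64; adjusted p of 8.53e-131, exact binomial, Benjamini-Hochberg). Nup153, which anchors the basket, had 2327 and 1502 reads, with a log2 ratio of -0.45 (-0.54 to -0.35). Nup50, a mobile basket protein that helps to release import cargo, had 2176 and 2444 reads, with a log2 ratio of 0.35 (0.27 to 0.44).

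The share of Tpr in the basket's summed FPKM was 52.6% in the control and 40.0% in the HTL library, and that of Nup50 was 25.7% and 40.4%. On the FPKM scale Nup50 was thus at 0.488 of Tpr in the control and 1.01 of it in the HTL library, a log2 difference of 1.05 (0.95 to 1.15). Tpr shares 176 exon bases with BC003331 and 201 with Prg4, both on the opposite strand. BC003331 had 239 and 149 reads, with a log2 ratio of -0.49 (-0.80 to -0.20), and Prg4 had 18 and 19 reads. The part of the shared bases in the Tpr value was not tested.

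Among the membrane nucleoporins, which anchor the pore in the envelope, the median was -0.41 (-0.27 under TMM, and -0.16 minus the median of genes of similar length), and 2 genes lay on each side of 0. Nup210, the gene of a glycoprotein that rings the pore in the envelope lumen, had 1108 and 540 reads and fell by 0.85 on the log2 scale (interval -1.0 to -0.70). Its paralogue Nup210l had only 40 and 13 reads (0.67 and 0.25 FPKM) and a log2 ratio of -1.40, with an interval from -2.46 to -0.50; as a ratio of FPKM + 1 the log2 value was -0.42. The adjusted p of Nup210l was 0.003 (exact binomial, Benjamini-Hochberg), so it was not called at this depth. Pom121, which helps to start pore assembly, had 3073 and 2973 reads, with a log2 ratio of 0.14 (0.06 to 0.21). It shares 665 exon bases on the opposite strand with Nsun5, which had 317 and 260 reads, and the part of these bases was not tested. Ndc1 had 781 and 702 reads, with a log2 ratio of 0.03 (-0.12 to 0.18).

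The scaffold rings showed smaller differences. In the Y-complex, the outer ring of the pore, 6 of the 7 genes in the symbol set had a log2 ratio below 0 and the median was -0.30. Under TMM the median was -0.16, with 5 of 7 below 0. Minus the median of genes of similar length it was -0.13, with 4 of 7 below 0. In this group 0 of 7 passed either cutoff (against 18.2% of all genes tested that fell and 8.9% that rose at the smaller one). Nup43 was the highest with 871 and 947 reads (0.31; 0.17 to 0.44), and Nup37 the lowest with 456 and 291 reads (-0.46; -0.68 to -0.25). Seh1l, the most abundant of the 7 at 112.15 FPKM in the control, had 3541 and 2494 reads, with a log2 ratio of -0.32. The remaining 4 were Nup107 and Nup85, both at -0.30, Nup160 at -0.17 and Nup133 at -0.03. Sec13 and Ahctf1, parts of the same complex but outside the symbol set, were higher in the HTL library. Their log2 ratios were 0.24 (0.15 to 0.34; 1654 and 1723 reads) and 0.12 (0.05 to 0.19; 3369 and 3216 reads).

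In the inner ring the median was -0.06 and flipped to 0.08 under TMM and to 0.26 minus the median of genes of similar length. Nup35, which joins the ring to the membrane, had 372 and 211 reads and fell by 0.63 on the log2 scale (interval -0.88 to -0.39). It shares 131 exon bases on the same strand with Dusp19, which had 73 and 45 reads, and the part of these bases was not tested. Nup155, which also touches the membrane, had 2377 and 1558 reads, with a log2 ratio of -0.42 (-0.52 to -0.33). The large scaffold genes Nup188 and Nup205 were at 0.22 (2301 and 2351 reads) and -0.06 (2413 and 2033 reads), a log2 difference of 0.28 (0.16 to 0.40). Nup93, which binds both of their products, had 1850 and 1737 reads, with a log2 ratio of 0.09 (interval from just below 0 to 0.19).

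The Ran cycle genes were the most abundant group, with a summed level of 1199.88 FPKM in the control and 1214.79 in the HTL library, and 0 of 4 passed either cutoff (against 18.2% that fell and 8.9% that rose over all genes at the smaller one). Their median log2 ratio was -0.05 and flipped to 0.08 under TMM. Ran had 8757 and 8806 reads, or 369.27 and 421.40 FPKM, with a log2 ratio of 0.19 (0.15 to 0.24). Ranbp1, which helps to take Ran off transport receptors in the cytoplasm, had 5542 and 4723 reads; its log2 ratio was -0.05 (-0.10 to 0.01) and flipped to 0.09 under TMM. Rangap1, the activator of GTP hydrolysis on Ran, had 4483 and 3777 reads, with a log2 ratio of -0.06 (-0.12 to 0.001), which under TMM was 0.08.

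Rcc1, the chromatin-bound exchange factor that loads Ran with GTP, had 942 and 628 reads, with a log2 ratio of -0.40 (-0.55 to -0.25). Against Ran it was lower by a log2 difference of 0.59 (0.44 to 0.75), with Ran at 9.34 times the FPKM of Rcc1 in the control and 14.1 times in the HTL library. Rcc1 shares 135 exon bases on the same strand with the host gene Snhg3, which had 481 and 205 reads, with a log2 ratio of -1.04 (-1.29 to -0.81). The part of these shared bases in the Rcc1 value was not tested.

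The importin alpha adaptors, which recognise the classical nuclear localization signal, went in opposite directions. Kpna2 (gene ID 16647; chromosome 11, 106849943 to 106860855, minus strand), the most abundant of the 5, had 3764 and 1983 reads, or 175.65 and 105.02 FPKM. It fell by 0.74 on the log2 scale (interval -0.82 to -0.66; adjusted p of 1.16e-77, exact binomial, Benjamini-Hochberg). Kpna4 (gene ID 16649; chromosome 3, 68871071 to 68931035, minus strand) had 1154 and 1585 reads, or 29.70 and 46.29 FPKM, and rose with a log2 ratio of 0.64 (0.53 to 0.75). Kpna1 had 614 and 741 reads, with a log2 ratio of 0.46 (0.30 to 0.61), under the smaller cutoff.

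Kpna3 had 2087 and 1404 reads, with a log2 ratio of -0.39 (-0.49 to -0.29), although Kpna3 and Kpna4 are close paralogues. The log2 difference between them was 1.03 (0.88 to 1.18). Kpna6 had 1463 and 1350 reads, with a log2 ratio of 0.07 (-0.04 to 0.18). In the summed FPKM of the 5 adaptors, Kpna2 held 60.1% in the control and 45.0% in the HTL library, Kpna4 10.2% and 19.8%, and Kpna1 5.0% and 8.57%. Kpna4 was at 0.169 of the FPKM of Kpna2 in the control and at 0.441 of it in the HTL library (log2 difference 1.38, 1.25 to 1.52). The median of the 5 log2 ratios was 0.07 (0.21 under TMM, and 0.35 minus the median of genes of similar length), while their summed FPKM was 292.43 in the control and 233.59 in the HTL library, which mostly followed Kpna2.

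Kpnb1, the importin beta that carries the adaptors and their cargo, was the most deeply read member and nearly equal in both libraries. It had 16673 and 14681 reads, or 269.55 and 269.36 FPKM, with a log2 ratio of 0.0019 (-0.03 to 0.03); under TMM, which moves the median gene to near 0, it was 0.14. Ipo5, a carrier of ribosomal proteins and histones, had 4276 and 3784 reads, with a log2 ratio of 0.01 (-0.05 to 0.07). Tnpo2 was at 0.03 with 1297 and 1164 reads.

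The importin beta and transportin family as a whole had a median of -0.20 (-0.06 under TMM, and 0.06, with the sign flipped, minus the median of genes of similar length), and 2 of its 11 genes fell at the smaller cutoff, as did 18.2% of all genes tested. Ipo11 (gene ID 76582; chromosome 13, 107584519 to 107726995, minus strand), a carrier of ubiquitin-conjugating enzymes, had 885 and 330 reads, or 19.79 and 8.37 FPKM. Its log2 ratio was -1.24 (-1.42 to -1.05), a level 2.36-fold lower, and under TMM it was -1.10. Ipo4, which imports ribosomal proteins and histones, had 1264 and 735 reads and fell by 0.60 on the log2 scale (interval -0.73 to -0.46); it shares 685 exon bases on the same strand with Tm9sf1, which had 184 and 187 reads. Tnpo3, the carrier of serine/arginine-rich splicing factors, was the highest of the family with 2071 and 2345 reads, with a log2 ratio of 0.36 (0.28 to 0.45).

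The other family members lay between those values. Tnpo1 had 3617 and 2516 reads (-0.34), Ipo9 1866 and 1320 (-0.31), and Ipo13 632 and 418 (-0.41). The paralogues Ipo7 and Ipo8, at -0.19 and -0.20, differed from each other by 0.01 on the log2 scale (-0.15 to 0.17). The transportins did not move alike: Tnpo3 differed from Tnpo1 by 0.70 (0.59 to 0.82) and Tnpo2 from Tnpo1 by 0.37 (0.23 to 0.50).

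Of the 7 exportins, 2 fell at the smaller cutoff (against 18.2% of all genes tested), and the family median was -0.19 (-0.06 under TMM). Minus the median of genes of similar length it was 0.06, so its sign flipped, with 4 genes above 0 and 3 below. Xpo4, which exports the translation factor eIF5A, had 866 and 409 reads, or 24.04 and 12.89 FPKM, and fell by 0.90 on the log2 scale (interval -1.07 to -0.73). It shares 332 exon bases on the same strand with Lats2, which had 129 and 38 reads, with a log2 ratio of -1.57 (-2.14 to -1.05); the part of these bases in the Xpo4 value was not tested. Cse1l, which returns importin alpha to the cytoplasm, had 3734 and 2201 reads, or 99.37 and 66.47 FPKM, and fell by 0.58 on the log2 scale (interval -0.65 to -0.50). Kpna2 and its export receptor Cse1l were thus both lower, and Kpnb1 was not.

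Xpot, the tRNA exporter, was the highest exportin with 1716 and 1909 reads, with a log2 ratio of 0.34 (0.24 to 0.43). Its log2 difference from Xpo4 was 1.24 (1.04 to 1.43). Xpo1, the receptor of leucine-rich export signals, had 5305 and 4090 reads, with a log2 ratio of -0.19 (-0.25 to -0.13). Xpo5, the exporter of microRNA precursors, was at -0.19 (2070 and 1593 reads), Xpo7 at -0.32 (1028 and 725) and Xpo6, which exports actin, at 0.05 (1159 and 1052).

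The mRNA export receptor is a dimer of Nxf1 and Nxt1, and its genes moved apart. Nxt1 (gene ID 56488; chromosome 2, 148498337 to 148501763, plus strand) had 277 and 417 reads, or 28.05 and 48.18 FPKM, and rose with a log2 ratio of 0.77 (0.55 to 1.00). Nxf1 had 2345 and 1604 reads, or 88.54 and 69.68 FPKM, with a log2 ratio of -0.36 (-0.45 to -0.27). The share of Nxt1 in their summed FPKM was 24.1% in the control and 40.9% in the HTL library, a log2 difference between the genes of 1.14 (0.90 to 1.38). Nxt1 is also the second shortest member transcript, at 969 bases.

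Transcript length moved with the log2 ratio over the whole table, so the members were also set against genes of their own length. In 10 bins of length with near-equal numbers of genes, the median over all genes tested ran from a log2 ratio of 0.14 in the shortest bin to -0.38 in the longest. Members had long transcripts, with a median of 3971 bases against 2888 for all genes tested, and 23 of 57 lay in the 2 longest bins. Minus the median of their own bin, the members' median log2 ratio was 0.06, with 29 above 0 and 28 below, so the sign of the median flipped. The rank correlation of length with log2 ratio (Spearman's rho) was -0.02 across the 57 members and -0.18 across all genes tested; these are descriptions across genes, which share both libraries and are not independent.

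Minus the median of its bin, Nup62 (3746 bases) was at 1.11, Nupl1 (2410 bases) at -0.93, Ipo11 (4282 bases) at -1.03 and Nupl2 (2909 bases) at -1.56. Tpr (7550 bases), in the longest bin, moved from -0.70 to -0.32, and Nup210 (7043 bases) from -0.85 to -0.47. Nxt1, in the shortest bin, moved from 0.77 to 0.64. On this scale Tpr, Nup210, Ipo4 (-0.43), Cse1l (-0.41) and Nup88 (-0.42) no longer reached the smaller cutoff, and Nupl1 no longer reached the larger one. Kpna1 (0.66), Nup50 (0.63), Xpot (0.62) and Tnpo3 (0.53) then passed the smaller cutoff as higher, and Nup62 passed the larger one. At the smaller cutoff 6 members were then lower (against 13.8% of all genes on this scale) and 7 higher (against 10.8%), and at the larger one 2 lower (against 5.77%) and 1 higher (against 3.82%). What lies behind the relation with length was not tested.

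**Figure D4:**
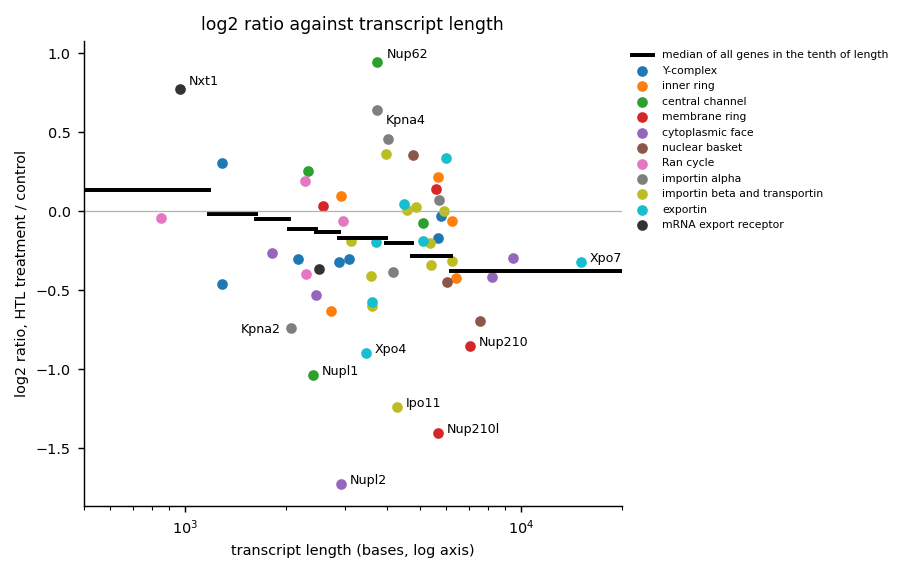
Log2 ratio (HTL over control) of each member against transcript length in bases (log axis), coloured by role; black bars are the medians of all genes tested in each of 10 bins of length, from 0.14 in the shortest to -0.38 in the longest. Nup62 and Kpna4 lie above the bars and Nupl2, Ipo11, Nupl1 and Xpo4 below them, at middle lengths between 2410 and 4282 bases.

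Genes that work with the pore or belong to it, but are outside the symbol set, were read from 5 lists. These were mRNA export factors, pore partners, cofactors of Ran and the receptors, lamina and envelope genes, and the SUMO pathway. Of 83 names, 77 were tested, with a median log2 ratio of -0.06. This median flipped to 0.08 minus the median of genes of similar length, and the rise of 0.14 under TMM also put it above 0. At the smaller cutoff 11 fell and 5 rose, and at the larger one 3 fell and 1 rose. All counts from these lists stand beside 18.2% of all genes tested that fell and 8.9% that rose at the smaller cutoff, and 7.98% and 2.81% at the larger one. The mRNA export factors had a median of -0.03, and 4 of 24 fell at the smaller cutoff while 2 rose. Their median also flipped, to 0.05 minus the median of genes of similar length and above 0 under TMM. Thoc1 (932 and 416 reads, log2 ratio -0.98) and Thoc2 (1036 and 484, -0.91) encode subunits of the THO complex, which packages new mRNA for export. Alyref2 (48 and 14 reads, -1.56) and Mcm3ap (709 and 409, -0.61) also fell, and Poldip3 (1687 and 2378, 0.68) and Phax (665 and 828, 0.50) rose. Phax is the adaptor for export of small nuclear RNA.

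Among the 13 pore partners, 1 rose and 0 fell at the smaller cutoff (against 8.9% and 18.2% of all genes tested). Sec13, Ahctf1 and Rae1, which are themselves nucleoporins, were at 0.24, 0.12 and -0.19. Tor1a, a torsin ATPase of the envelope lumen, had 270 and 396 reads, with a log2 ratio of 0.74 (0.51 to 0.97); Senp2, a SUMO protease at the basket, was the lowest at -0.49. Of the 12 cofactors tested, Nemf (909 and 397 reads, -1.01) and Heatr3 (904 and 549, -0.53) fell. The highest cofactor, Ranbp3l, had only 21 and 23 reads and an interval from -0.60 to 1.24.

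Of the 16 lamina and envelope genes, 3 fell and 2 rose at the smaller cutoff (against 18.2% and 8.9% of all genes tested), and the median was 0.05. Lmna, the gene of lamin A and lamin C, had 50 and 99 reads, with a log2 ratio of 1.16 (0.67 to 1.69), and Banf1, a chromatin-binding envelope partner, had 1302 and 1625 reads (0.50). Syne1 and Syne2, which encode the nesprins that tie the envelope to the cytoskeleton, were at -1.08 (166 and 69 reads) and -0.53 (1087 and 660), and Lemd3 at -0.74 (305 and 160). In the SUMO pathway Senp6 (2516 and 1465 reads, -0.59) and Pias4 (403 and 235, -0.59) fell, and the highest, Sumo3, was at 0.43 (1605 and 1903 reads).

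**Figure D5:**
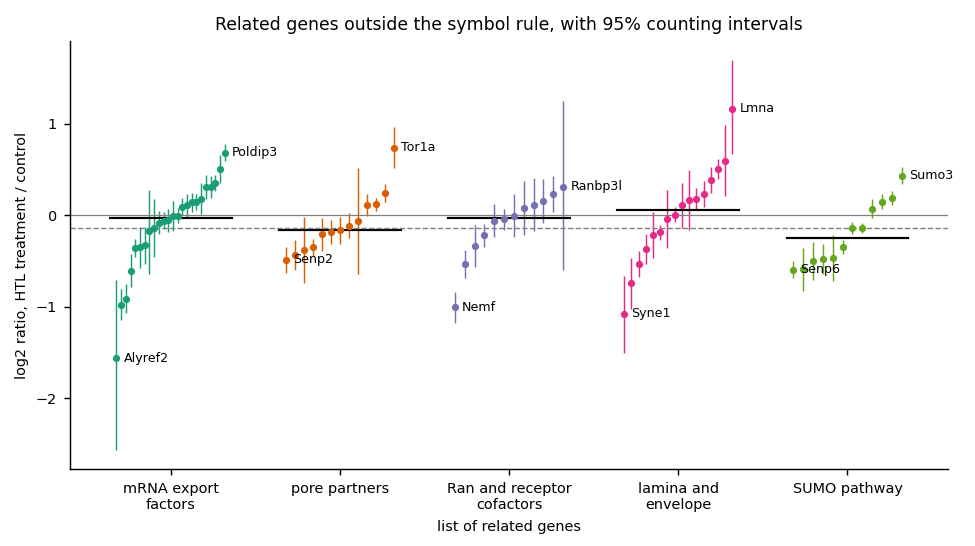
Log2 ratio (HTL over control, scaled to library totals) with 95% counting intervals for 77 related genes in 5 lists; black bars are list medians, the dashed line is the median of all genes tested (-0.14). List medians lay between -0.25 (SUMO pathway) and 0.05 (lamina and envelope), and the widest intervals belong to genes with few reads such as Ranbp3l and Alyref2.

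The label of the cells was checked against markers. All 9 neural stem cell markers were listed, with Nes at 25.14 and 24.08 FPKM and Msi1 at 38.68 and 39.48, but Fabp7 had only 2 reads in each library. Pax6 was low at 1.76 and 1.94 FPKM, and so was Sox1 at 1.14 and 0.32. The summed FPKM of the 9 was 193.4 in the control and 138.44 in the HTL library, and its members went both ways. Vim was at 78.54 and 38.84 FPKM, Sox2 had 894 and 285 reads and Sox1 48 and 12, whereas Prom1 was at 11.9 and 18.28 FPKM and Notch1 had 124 and 231 reads. Of the pluripotency genes, Pou5f1 stood at 1870 and 2114 FPKM and Nanog at 23.77 and 14.75, while 6 listed neuron markers summed to 36.07 and 51.02 FPKM. That list also went both ways, with more reads of Tubb3 (296 and 396) and Stmn2 (309 and 403) and fewer of Dcx (88 and 29), Map2 (114 and 66) and Neurod1 (7 and 1) in the HTL library. The listed markers of astrocytes, oligodendrocytes and fibroblasts each summed to at most 4.34 FPKM in either library. In bulk RNA, fewer cells of a type and less RNA per cell cannot be told apart, and the part of these differences in the values of the pore and transport genes was not tested.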

How the data were processed

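Total RNA of 1 control and 1 HTL-treated NE4C culture was sequenced with BGISEQ protocols from TruSeq libraries. The authors mapped the reads (build mm9, per the submitters' processing notes) and estimated counts per gene with RSEM; the deposited expected counts are not normalized, and 21.8% and 20.2% of the control and HTL values were fractional. The deposited FPKM values were scaled by the authors to length and library size, with a lowest value of 0.01. The table also holds the authors' log2 ratio, p-value and FDR, which were not used. The aligner, versions, annotation and use of strand are not given in the sources used here.

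Estimated counts were rounded, and each gene with 10 or more reads over both libraries entered a two-sided exact conditional binomial test (scipy 1.17.1) with Benjamini-Hochberg adjustment. Log2 ratios carried 0.5 read per library. Intervals for single genes were Clopper-Pearson, and those between 2 genes exact conditional intervals of the odds ratio, for 18 pairs chosen after their values were seen. Reads are not independent molecules. Without replicates neither DESeq2 nor the quasi-likelihood model of edgeR (4.0.16) could be fitted, and the tests measure only these libraries. The binomial test was tested on simulated data.

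The 57 members, the gene lists, motifs and tests were chosen with earlier results of these data known. By rule, the 31 named members are those past the smaller cutoff and, per role, the highest, the lowest and the most abundant; the other members are given to account for the whole set. Coordinates came from GENCODE vM1 on NCBIM37 (the same assembly as mm9), in which 56 of 57 members were found and 15 share exon bases with another gene. Beside those given above, these are Tnpo2 (543 bases with A230103J11Rik), Kpnb1 (466 with Gm11583) and Tnpo3 (411 with Irf5). Nup188 shares 492 with Gm14471 and 286 with Phyhd1, and Nup214 shares 251 with Gm16534, 200 with Gm13609 and 177 with Fam78a. Nupl1 shares 105 with Mir719 and Ranbp1 54 with Trmt2a. The part of these bases was not tested. Promoter sequences came from RefSeq.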

Additional observations from a re-analysis of the deposited data

How the results depend on the processing

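With 1 library per condition the spread between cultures is unknown, and this is the main limit on every value. No paired analysis was possible because there is a single library per condition and the labels give no replicate numbers. With edgeR's exact test and an assumed coefficient of variation between cultures of 0.1, 4 members fell and 1 rose at the cutoff of 0.5 (against 7.26% and 2.83% of all genes tested). At the cutoff of 1, 3 fell and 0 rose (against 6.18% and 2.2%). With 0.2 or 0.4 none passed: 0 fell at the cutoff of 1, and 0 fell and 0 rose at 0.5, against 3, 11 and 3 by the binomial test. Few genes of any kind passed then. At either cutoff, 0.61% of all genes tested fell and 0.283% rose with 0.2, and 0.0372% and 0.00744% with 0.4. Over all genes tested, 1357, 120 and 6 reached a Benjamini-Hochberg adjusted p of 0.001 or less in that test at 0.1, 0.2 and 0.4.

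Scaling by TMM, median of ratios or upper quartile gave 1 rise at the cutoff of 1 (against 4.16%, 4.09% and 3.94% of all genes tested), and TMM gave 7 falls and 5 rises at 0.5 (against 13.6% and 13.4%). Under TMM the medians were -0.063 for all members, -0.16 for nucleoporins, -0.058 for import receptors and -0.055 for exportins (main values -0.20, -0.30, -0.20 and -0.19). Under median of ratios they were -0.073, -0.17, -0.067 and -0.065, and under upper quartile -0.086, -0.19, -0.080 and -0.078. Minus the median of the same bin of length they were 0.059, -0.042, 0.072 and 0.059, so 3 of 4 changed sign, and the counts were 1 rise at the cutoff of 1 and 6 falls and 7 rises at 0.5 (against 3.82%, 13.8% and 10.8% of all genes on this scale). Among named genes, Ranbp1 changed sign under TMM (0.092), median of ratios (0.083) and upper quartile (0.070), and Kpnb1 with FPKM + 1 (-0.0010), which also moved the little-read Nup210l from -1.40 to -0.42. The filters on low reads (at least 1 read, or a mean of at least 50), 5 reads added, the ratio of FPKM + 1, an adjusted p of 0.05 and the summing of near copies, of which the members had none, moved no count of calls by over 1.5 times.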
